A study of Mus musculus with 13 samples.

Results

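Dnase1l3, the gene of a secreted DNA-digesting enzyme, was described in liver phagocytes and sinusoidal endothelium of mice, from 13 single-cell RNA-seq libraries made in droplets. It is 1 of 55353 genes in the deposited matrices (ENSMUSG00000025279.7), a protein-coding gene with 2 annotated transcripts on the minus strand of chromosome 14, from position 7964533 to 7994573 (GRCm38, GENCODE M21). The gene was chosen by its measured values. Its raw UMIs (unique molecular identifiers, the count of captured transcripts) were low in type 2 conventional dendritic cells (cDC2) at disease progression and high after the diet was stopped. Its levels by cell type, diet day and recovery are therefore given as a description, with no test. Tests are given for splits of cells within libraries and for other genes. The cell types compared were 5625 cDC2-like, 657 mature DC-like, 4262 cDC1-like, 6414 macrophage-like and 2665 Kupffer-like cells and 24529 cells like liver sinusoidal endothelial cells (LSECs), of 95563 cells in all.

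DNASE1L3 belongs to the DNase I family. It is released by dendritic cells and macrophages and cuts DNA that is still packed in chromatin, including the DNA on particles shed by dying cells. Loss of the enzyme in people and mice leads to antibodies against DNA and a lupus-like disease. In the liver, Kupffer cells are the resident macrophages of the sinusoids, LSECs line the sinusoids and take up waste from blood, and cDC1 and cDC2 present antigens to T cells. Mature DCs carry Ccr7, the receptor that guides them to lymph nodes.

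The libraries came from male C57BL/6J mice aged 6 to 12 weeks. Mice of the 2 steady-state libraries (D0) received no 3,5-diethoxycarbonyl-1,4-dihydrocollidine (DDC), a compound that causes cholangitis, and the others were fed chow with 0.1% DDC for 3 or 5 days (onset, 4 libraries) or for 9, 19 or 25 days (progression, 6 libraries). The STOP library had the diet for 18 or 19 days, as its labels give both, and then 7 days of recovery, and 1 label of D19 B likewise gives day 18. Each diet day had 1 library of isolation protocol A and 1 of protocol B, and STOP was made with protocol B. Protocol A sorted live singlets, Epcam+ and Pdpn+ cells, leukocytes (Cd45+), endothelium by Lyve-1+ or by Cd31+ Lyve-1-, and cells with retinoid autofluorescence, and protocol B sorted live cells of a stellate cell preparation beside Cd45+ Itgax+ Cd64-, Epcam+ and Cd3e+ Lyve-1- cells. The dendritic cell gate of protocol B thus left out Cd64+ macrophages, and LSECs were a sorted population in protocol A alone. The protocols also used different index kits. The labels do not say how many animals a library holds, so the spread between libraries may be partly technical.

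Libraries held 29307190 to 108602421 UMIs and 1541 to 14764 cells with at least 1500 UMIs, at a median of 3350 to 12013 UMIs per cell. Any 2 libraries shared at most 49 cell barcodes, and at most 0.519% of the smaller library, in another pair. D0 B stood apart: of the cDC2-like cells 1 cluster of 1014 was 82.1% D0 B, and of the cDC1-like cells 1 cluster of 1043 was 84.8% D0 B. The difference of progression from D0 to D5 is therefore also given without it.

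The names rested on marker genes. Cd209a was found in 71.9% of cDC2-like cells and 5.31% of all other cells, Clec10a in 56.6% and 5.87%, but the cDC2 marker Clec4a4 in 2.86% and 0.197%. Ccr7 was found in 94.2% of mature DC-like cells against 9.29% of others, Xcr1 in 77.9% of cDC1-like cells against 3.89%, Trem2 in 84.6% of macrophage-like cells against 10.2%, Clec4f in 89.5% of Kupffer-like cells against 8.55%, and Stab2 in 80.3% of LSEC-like cells against 15.8%. Since the names were given from these markers, their presence is no separate check. Other listed markers were sparser: Mgl2 was in 28.3% and Cd209d in 11.3% of cDC2-like cells. Il4i1 was in 9.74% of mature DC-like, Folr2 in 20.9% of Kupffer-like and Clec4g in 35.3% of LSEC-like cells. Sirpa, in 54.6% of cDC2-like cells and 41.6% of others, hardly set cDC2-like cells apart.

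LSEC-like cells held most of the transcript over all libraries pooled. Of 1161844 Dnase1l3 UMIs in cells, 57.4% were in LSEC-like cells, which made up 25.7% of the cells and held 17.6% of all UMIs. Further unnamed clusters held 17.2%, among them an endothelial cluster of 2125 cells with 8516 CPM of LSEC markers, 78.6% of it from 1 library. In D19 A LSEC-like cells held 12.7% of the Dnase1l3 UMIs and these unnamed cells 66.4%, so the share of LSEC-like cells depends on which clusters were named. It also went with the sort: it was 67.5% to 84.7% in the 5 other protocol A libraries and 22.4% to 50.9% in protocol B libraries, STOP included. The 5 phagocyte types held 26.1% of all UMIs and 4.55% of the Dnase1l3 UMIs. Because LSEC RNA was this rich in Dnase1l3, phagocyte clusters that carried LSEC markers were kept apart. Clusters whose best name was a phagocyte type but whose 8 LSEC markers (Clec4g, Stab2, Gpr182, Oit3, Bmp2, Lyve1, Kdr and Ehd3) summed to at least 1000 counts per 1000000 UMIs (CPM) were not named, by a limit set after the clusters were seen. They held 4492 cells and 12.0% of all Dnase1l3 UMIs.

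In the clusters set aside Dnase1l3 reached 1706 CPM in 723 cells best named Kupffer cells, 2289 CPM in 666 cells best named cDC2, 2414 CPM in 2383 cells best named macrophages and 2596 CPM in 720 cells best named cDC1. The ratio of Dnase1l3 to the summed LSEC markers was 0.52, 0.573, 0.529 and 0.848 in that order, within the range of 0.381 to 1.81 in LSEC-like cells of the 13 libraries. The median of that range was 0.504, and its top was D0 B. Library by library, the cDC1 ratio lay below that of LSEC-like cells in D0 B, D3 B and D25 A and above it in the others with such cells. Their median depth was 14427 UMIs against 6979 in Kupffer-like cells, 12959 against 7760 in cDC2-like, 8499 against 8434 in macrophage-like and 17370 against 10200 in cDC1-like cells. Where a library held any, they made up 5.71% to 53.6% of a type with these clusters in protocol A and 1.72% to 22.5% in protocol B. D0 A held none for cDC1 and D0 B none for Kupffer cells. For cDC2 the share was 30.8% in D3 A, 26.3% in D5 A and 23.1% in D9 A, the 3 highest, 13.4% in STOP and 4.74% in D19 B. What these cells are was not tested.

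**Figure D1:**
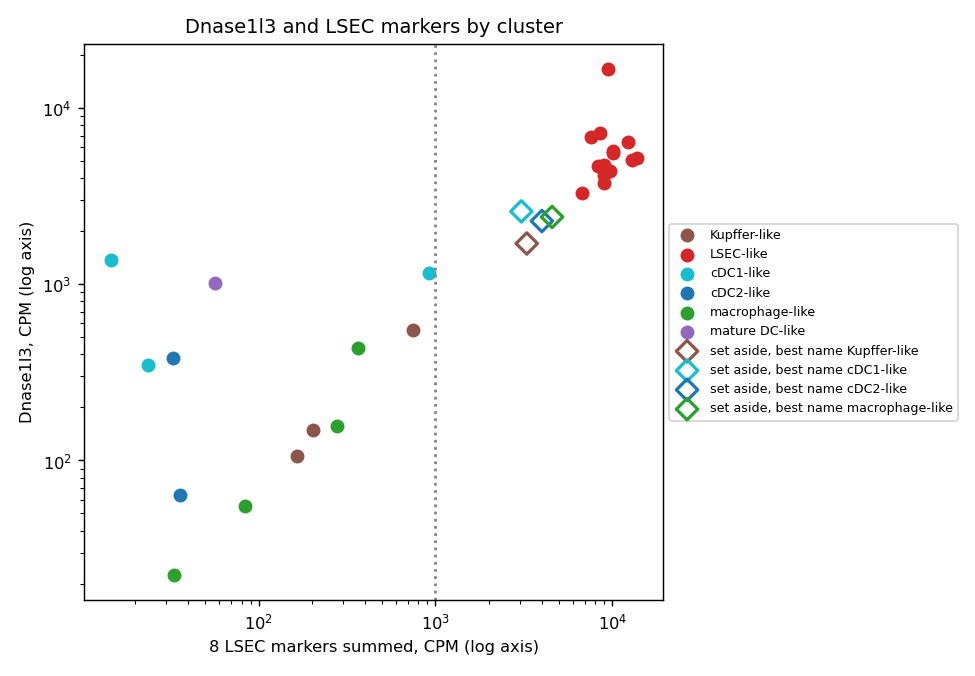
Dnase1l3 (vertical axis, CPM, log axis) against the sum of 8 LSEC markers (horizontal axis, CPM, log axis). Filled points are clusters of the 6 named types, open diamonds the phagocyte clusters set aside, summed by their best name, and the dotted line is the limit of 1000 CPM. The set-aside groups lie between the named phagocytes and the LSEC-like clusters on the marker axis and at 1706 to 2596 CPM of Dnase1l3.

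Free RNA was measured in 2 ways. Barcodes with 10 to 100 UMIs, too few for a cell, held Dnase1l3 at 790 to 3977 CPM in protocol A and 130 to 1375 CPM in protocol B. T cells, which are not known as a source of the enzyme, gave the level that a sorted cell of another type carried. T-like cells held 48.4 to 291 CPM in 5 protocol A libraries of 21 to 57 cells, 0 UMIs in the 24 cells of D19 A, 9.8 to 97.5 CPM in the 6 diet series libraries of protocol B and 81.8 CPM in STOP. LSEC markers moved with it, since T-like cells without a UMI of any LSEC marker held 2.8 to 23.0 CPM in the protocol B libraries, STOP included. The median of free RNA was 2469 CPM in protocol A and 911 CPM in protocol B, STOP included, but the protocols overlapped. D19 A at 795 CPM and D25 A at 790 CPM lay below D0 B, D3 B, D5 B and STOP. In T-like cells D19 A lay below each protocol B library.

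By the median over libraries with at least 20 cells, the order was LSEC-like (5406 CPM), mature DC-like (737), cDC1-like (360), Kupffer-like (175), cDC2-like (113), plasmacytoid DC-like (97.6), macrophage-like (62.6) and T-like cells (48.4). LSEC-like cells were above mature DC-like cells in 9 of 9 libraries. Mature DC-like cells were above cDC1-like cells in 9 of 9 libraries, and cDC1-like above Kupffer-like cells in 11 of 12. The lower neighbours were less clearly ordered: Kupffer-like cells were above cDC2-like cells in 10 of 13 libraries but in 7 of 13 without cells that had an LSEC marker UMI, cDC2-like above plasmacytoid DC-like cells in 4 of 9, and macrophage-like above T-like cells in 8 of 13. An exception was that plasmacytoid DC-like cells were above macrophage-like cells in 8 of 9. Among the phagocytes, the mature DC and cDC1 levels were above those of T-like cells in every library with enough cells, 9 of 9 and 12 of 12. These counts give the order alone and take no account of counting error.

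**Figure D2:**
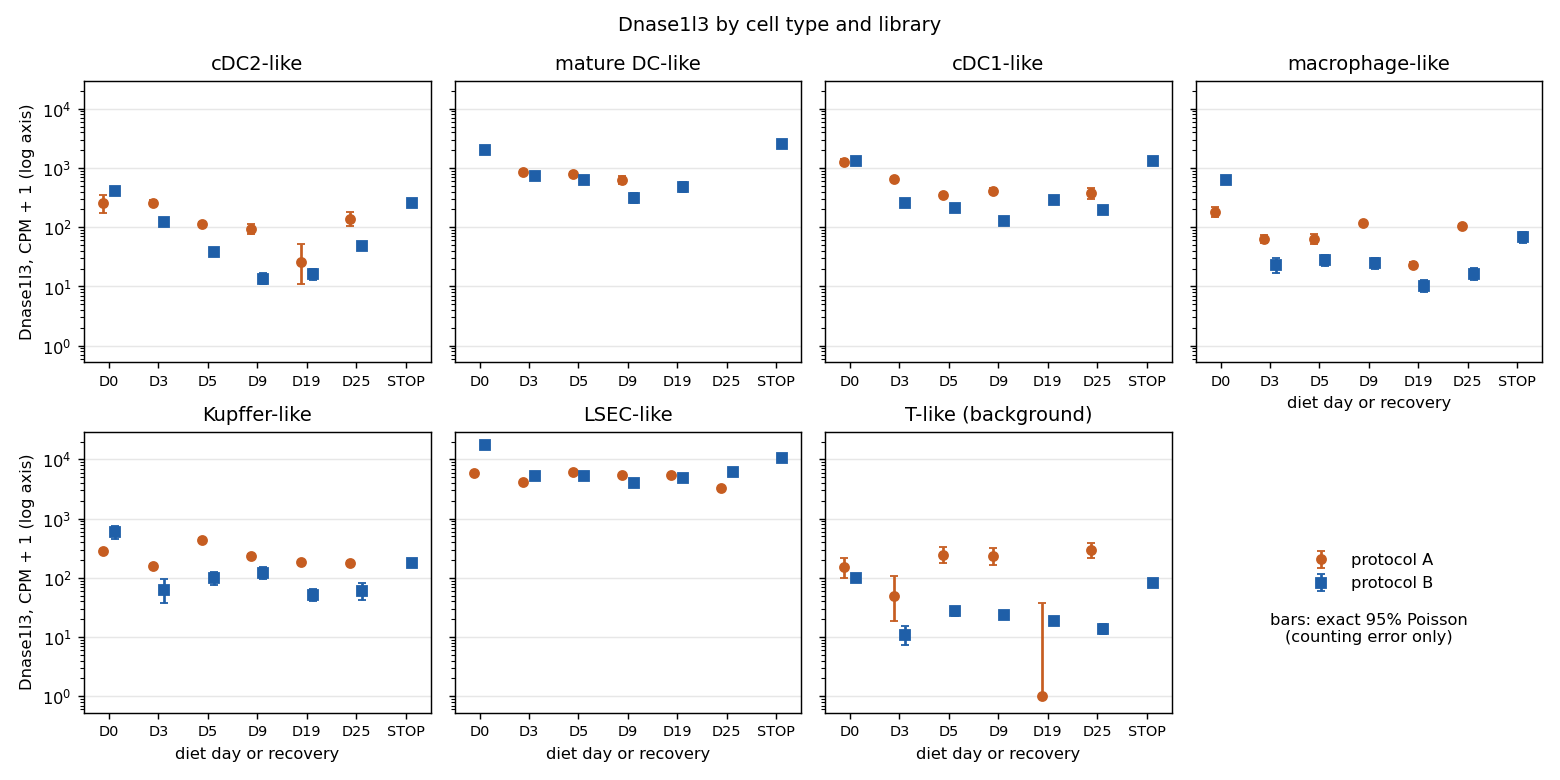
Dnase1l3 (CPM + 1, log axis) in each library by diet day and recovery, in 6 cell types and in T-like cells as background. Circles are protocol A, squares protocol B, and bars are exact 95% Poisson intervals, which cover counting error only. In cDC2-like cells the 3 protocol B libraries of progression lie at 12.5 to 47.8 CPM and STOP at 260 CPM.

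In cDC2-like cells the highest level of Dnase1l3 was in D0 B and the lowest levels were in D9 B and D19 B. It was 252 CPM in D0 A (22 cells) and 401 CPM in D0 B. At onset it was 258 CPM in D3 A, 120 in D3 B, 113 in D5 A and 36.9 in D5 B. At progression it was 92.2 CPM in D9 A, 12.5 in D9 B, 24.5 in D19 A, 15.2 in D19 B, 139 in D25 A and 47.8 in D25 B. STOP was at 260 CPM, above each progression library. The groups overlapped: D9 A, D25 A and D25 B lay within the range of D0 to D5, and D3 B, D5 A and D5 B lay within the range of progression. The mean was 197 ± 132 CPM (SD, n = 6 libraries) from D0 to D5 and 55.1 ± 50.4 CPM (SD, n = 6) at progression. Within protocol B it was 186 ± 191 CPM and 25.2 ± 19.6 CPM (SD, n = 3 each), and within protocol A 208 ± 81.9 CPM and 85.0 ± 57.3 CPM (SD, n = 3 each). The early mean of protocol B rested on D0 B at 401 CPM, beside 120 and 36.9 CPM in D3 B and D5 B. On the mean of log2(CPM + 10) progression differed from D0 to D5 by -1.72 with D0 B and by -1.46 without it.

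The lowest cDC2 levels were at the background. In D9 B cDC2-like cells held 12.5 CPM and T-like cells 22.8 CPM, in D19 B 15.2 and 17.7 CPM, and in D25 B 47.8 and 12.6 CPM. Thinned to 1500 UMIs each, 1.59% of cDC2-like cells of D9 B and 1.51% of D19 B had a Dnase1l3 UMI, against 2.62% and 1.44% of T-like cells. Before thinning, at a median of 9880 and 7768 UMIs per cDC2-like cell and 5445 and 4478 UMIs per T-like cell, the shares were 6.90% and 5.13% against 5.85% and 2.53%. In STOP the thinned share was 19.3% of cDC2-like cells against 4.54% of T-like cells, and in D0 B 22.6% against 4.11% (unthinned 31.8% against 9.54% and 35.3% against 5.82%). Over all cells, Dnase1l3 of cDC2-like cells in D9 B and D19 B was therefore not detectable above what T-like cells carried. Without cells that had an LSEC marker UMI, cDC2-like cells held 6.1 CPM (95% exact interval 4.11 to 8.70) and T-like cells 10.7 CPM (7.85 to 14.3) in D9 B. In D19 B cDC2-like cells were then above T-like cells, at 11.8 CPM (8.82 to 15.4) against 5.32 CPM (3.62 to 7.55). Over all libraries cDC2-like cells were above T-like cells in 8 of 13, and in 10 of 13 without cells that had an LSEC marker UMI. In protocol A they lay below T-like cells in D5 A, D9 A and D25 A and above them in D0 A, D3 A and D19 A.

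In protocol B, cDC2-like cells without any LSEC marker UMI held 395 CPM in D0 B, 108 in D3 B, 26.4 in D5 B, 6.1 in D9 B, 11.8 in D19 B, 31.2 in D25 B and 268 in STOP. In the cDC2-like cluster of 4611 cells that most libraries shared, D0 B held 297 CPM (62 cells), D3 B 123.5, D5 B 36.4, D9 B 12.7, D19 B 9.9, D25 B 30.8 and STOP 260 CPM. LSEC markers in all cDC2-like cells summed to 19.8 to 153 CPM at steady state, 28.8 to 60.6 at onset, 13.8 to 170 at progression and 35.7 CPM in STOP, with 0 to 4 of the 8 at 0. Macrophage markers in cDC2-like cells summed to 132 to 264 CPM over 4 onset libraries, 175 to 822 over 6 progression libraries and 97.5 CPM in STOP, and their part in the Dnase1l3 values was not tested. A further 1164 cells with markers of cDC2 and plasmacytoid DCs, kept unnamed, held 14.2 CPM, and made up 23.9% to 30.7% of cDC2 with these cells in protocol B libraries of progression against 6.88% to 14.7% in those of D0 to D5. In STOP they made up 17.4% and held 3.90 CPM, against 10.2 CPM in D19 B.

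**Figure D3:**
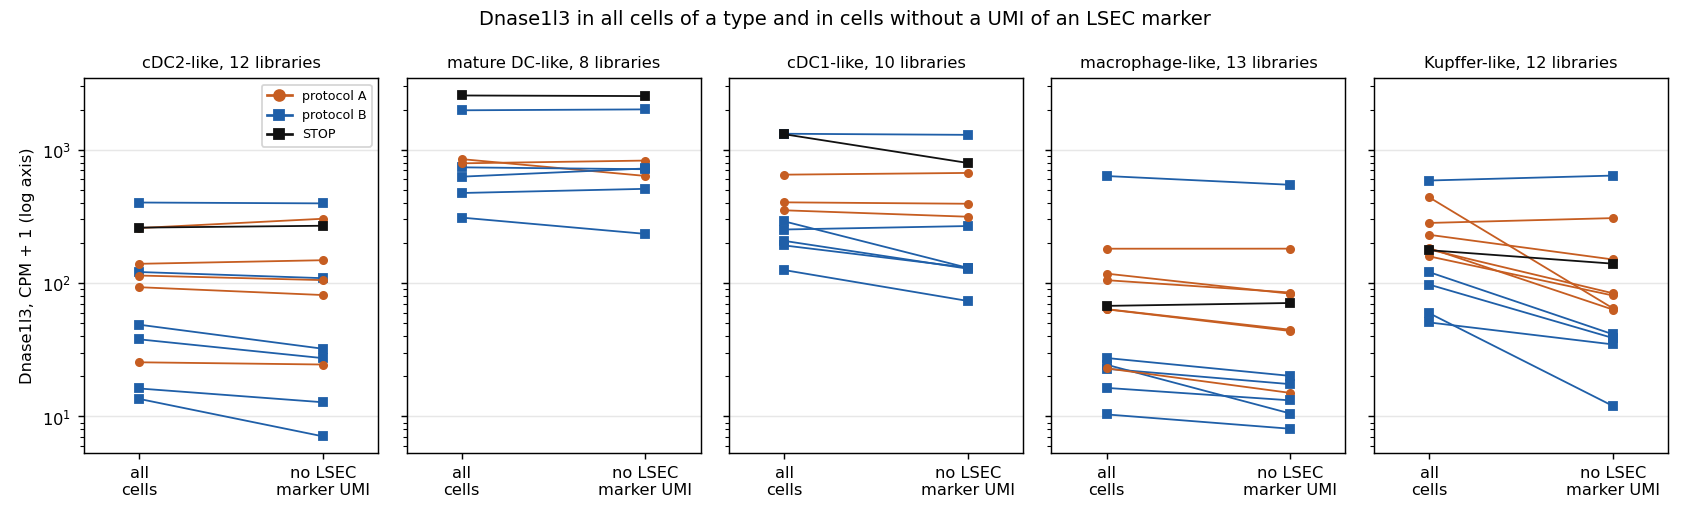
Dnase1l3 (CPM + 1, log axis) in all cells of a type and in its cells without a UMI of any of 8 LSEC markers, 1 line per library with at least 20 such cells (orange circles protocol A, blue squares protocol B, black STOP). Lines of Kupffer-like cells drop in most libraries, as in D5 A from 439 to 63.8 CPM, while the cDC2-like line of STOP stays near 260 CPM.

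Mature DC-like cells carried the most Dnase1l3 of the phagocytes. They held 1974 CPM in D0 B, 849 in D3 A, 737 in D3 B, 790 in D5 A, 627 in D5 B, 631 in D9 A, 309 in D9 B, 473 in D19 B and 2550 CPM in STOP, on 31 to 135 cells each. Fewer than 20 cells were found in D0 A, D19 A, D25 A and D25 B. Onset averaged 751 ± 94.4 CPM (SD, n = 4) and progression 471 ± 161 CPM (SD, n = 3), with D9 A at 631 CPM just above D5 B at 627 CPM. STOP and D0 B lay well above the other 7 libraries, and the log2 difference of progression from D0 to D5 was -0.99 with D0 B and -0.71 without it. A cell with any Dnase1l3 UMI had on average 28.0 UMIs in STOP, 17.99 in D0 B and 7.14 in D19 B. Neutrophil markers summed to 923 CPM in mature DC-like cells of STOP against 18.7 CPM in D0 B, 1.20 to 258 CPM at onset and 3.09 to 48.5 CPM at progression, and their part in the STOP value was not tested.

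In cDC1-like cells both steady-state libraries were high, D0 A at 1259 CPM (22 cells) and D0 B at 1317 CPM. Onset libraries held 649 CPM in D3 A, 251 in D3 B, 350 in D5 A and 206 in D5 B, and progression libraries 402 in D9 A, 124 in D9 B, 290 in D19 B, 370 in D25 A and 191 CPM in D25 B. Every library under diet was below every library of steady state. Onset (364 ± 199 CPM, SD, n = 4) and progression (275 ± 118 CPM, SD, n = 5) overlapped. The log2 difference of progression from D0 to D5 was -1.01 with D0 B and -0.75 without it. Macrophage markers in cDC1-like cells summed to 30.1 to 73.5 CPM at steady state, 9.29 to 213 CPM at onset and 168 to 453 CPM at progression. Kupffer cell markers summed to 703 CPM in D0 A against 25.7 CPM in D0 B. The part of these markers in the Dnase1l3 values was not tested. Another 978 cells with markers of cDC1 and cDC2 were kept unnamed and held 173 CPM. They held 176 CPM in D0 A, 320 CPM in D0 B and 325 CPM in STOP. Of cDC1 with these cells they made up 33.3% in D0 A and 23.2% in D0 B. The share ran from 2.94% in D25 A to 35.8% in D3 A. The cDC1 levels above leave these cells out. A cDC1-like cluster of 609 cells had 919 CPM of LSEC markers, just under the limit of 1000 CPM, and held 657 of the 975 Dnase1l3 UMIs of D19 B and 9164 of the 14926 of STOP. STOP was at 1307 CPM, but its cDC1-like cells also carried 620 CPM of LSEC markers, against 44.1 to 249 CPM at progression. Without cells that had an LSEC marker UMI STOP held 794 CPM, D0 B 1292 and D19 B 129 CPM. In the cDC1-like cluster shared by most libraries STOP held 788 CPM, D0 B 811 and D19 B 124 CPM, so the STOP level was lower there than in all cDC1-like cells.

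Macrophage-like cells were low under diet. D0 B held 634 CPM and D0 A 180 CPM, onset libraries 21.8 to 62.8 CPM, progression libraries 9.36 to 117 CPM and STOP 66.5 CPM. Onset averaged 43.4 ± 22.3 CPM (SD, n = 4) and progression 48.5 ± 48.4 CPM (SD, n = 6), and T-like cells over the same 6 progression libraries 96.0 ± 130 CPM. Most macrophage-like cells of steady state lay in a cluster of their own, which held 142 of the 171 cells of D0 B at 742 CPM and 82 of the 116 of D0 A at 193 CPM. In the cluster shared by all 13 libraries D0 B held 146 CPM and D0 A 136 CPM, on 27 cells each, beside 108 CPM in D9 A and 96.9 CPM in D25 A. D9 A at 117 CPM and D25 A at 104 CPM were the highest of progression, and their LSEC markers, 182 and 205 CPM, were the highest of progression too. LSEC markers were highest of all 13 libraries in D0 A, at 413 CPM. The difference of progression from D0 to D5, on the mean of log2(CPM + 10), was -1.10 with D0 B and -0.55 without it.

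Kupffer-like cells held 281 CPM in D0 A and 587 CPM in D0 B (26 cells, of which 19.2% had a Dnase1l3 UMI). In D0 B 23 of the cells shared a cluster and held 3 UMIs, 32.2 CPM, so the level came from the 3 other cells. Onset libraries held 60.7 CPM in D3 B to 439 CPM in D5 A, progression libraries 49.7 CPM in D19 B to 229 CPM in D9 A, and STOP 175 CPM. Kupffer-like cells were above T-like cells in 11 of 13 libraries, with D9 A and D25 A as the exceptions. Onset and progression overlapped, and D0 A at 281 CPM lay within onset. The log2 difference of progression from D0 to D5 was -0.74 with D0 B and -0.44 without it. LSEC markers summed to 533 CPM in D5 A, 515 CPM in D0 A and 359 CPM in D9 A against 45.5 in D3 B and 40.7 CPM in D19 B, but to 26.7 CPM, the lowest, in D0 B, with 6 of the 8 at 0. In cells without an LSEC marker UMI D5 A held 63.8 CPM, D9 A 149 CPM and D19 B 33.7 CPM.

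In LSEC-like cells Dnase1l3 was found in nearly every cell, in 95.3% to 99.8% of the cells of each library. It was 5841 CPM in D0 A and 17608 CPM in D0 B, 4213 to 6172 CPM over the 4 onset libraries, 3253 CPM (D25 A) to 6222 CPM (D25 B) over the 6 progression libraries and 10613 CPM in STOP. The unnamed endothelial cluster with LSEC markers described above was left out of these values, and no alternative counted it. In D19 A unnamed cells held 66.4% of the Dnase1l3 UMIs and LSEC-like cells 12.7%. D0 B and STOP were the highest of the 13 libraries. Steady-state cells lay mostly in clusters of their own: 1 cluster of 276 cells was 94.9% D0 B and held 16655 CPM, and 1 of 2435 cells was 98.4% D0 A and held 5216 CPM, so the diet days are compared with other clusters. Onset (5240 ± 802 CPM, SD, n = 4) and progression (4865 ± 1080 CPM, SD, n = 6) differed by less than the SD of either. The log2 difference of progression from D0 to D5 was -0.45 with D0 B and -0.16 without it. The 8 LSEC markers summed to 9718 CPM in D0 B and 10496 CPM in STOP, within the 6696 to 13775 CPM of the other libraries. The cells sorted differ between protocols, and D0 B, STOP and the other protocol B libraries had 85 to 736 LSEC-like cells against 937 to 5925 in protocol A.

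STOP was compared with D19 B, the protocol B library at the end of the diet, and with 1 library on each side the intervals cover counting error only. Without subtraction of background, Dnase1l3 was higher in STOP in each of the 6 types: 17.1 times in cDC2-like (95% exact interval 13.4 to 22.0), 7.10 times in macrophage-like (5.14 to 9.89), 5.40 times in mature DC-like (4.40 to 6.68), 4.51 times in cDC1-like (4.23 to 4.82), 3.53 times in Kupffer-like (2.65 to 4.74) and 2.23 times in LSEC-like cells (2.18 to 2.29). T-like cells, the background, were 4.62 times higher too (3.85 to 5.58). Free RNA was also richer in Dnase1l3 in STOP, at 981 CPM against 130 CPM in D19 B. D19 B had the lowest free RNA level of all libraries, so the reference of these ratios is the library with the least background by that measure. Over all cells, macrophage-like cells lay below T-like cells in both libraries. They held 66.5 against 81.8 CPM in STOP and 9.36 against 17.7 CPM in D19 B, so their ratio compares levels at the background. Without cells that had an LSEC marker UMI they lay above T-like cells. The values were then 69.9 against 23.0 CPM in STOP and 7.09 against 5.32 CPM in D19 B. The 8 hepatocyte markers also summed to more in STOP than in D19 B, at 189.5 against 21.5 CPM in cDC2-like, 188 against 66.2 in mature DC-like, 155 against 21.1 in cDC1-like, 255 against 69.8 in macrophage-like, 328 against 25.6 in Kupffer-like and 713 against 181 CPM in LSEC-like cells. None of the 8 was at 0 in STOP, and their part in the ratios was not tested. The choice of the gene favoured a high ratio in cDC2-like cells, so the order of the types is a description. Without cells that had an LSEC marker UMI the ratio was 22.8 in cDC2-like cells (17.1 to 30.8) and 4.32 in T-like cells (2.87 to 6.66). The cDC2 level of STOP, 260 CPM on 604 UMIs in 337 cells, lay between D3 B at 120 CPM and D0 B at 401 CPM. That of D19 B rests on 75 UMIs in 663 cells. The ratios also depend on the library taken as reference. D25 B, the other late protocol B library, lay above D19 B in cDC2-like, macrophage-like, Kupffer-like and LSEC-like cells. In cDC1-like cells D25 B lay below D19 B, and in cDC2-like cells D9 B did. The cDC2 ratio was 7.16 when the clusters with LSEC markers were counted. With the Dnase1l3 expected from free RNA subtracted it was 23.6, but the ratio turned to 0.566 in cDC1-like and 0.0227 in Kupffer-like cells. The subtraction multiplied the LSEC marker UMIs of the cells by the ratio of Dnase1l3 to LSEC markers in free RNA. That ratio was 1.95 in STOP and 0.484 in D19 B. All LSEC marker UMIs were thus taken as free RNA. Of the 153 UMIs in Kupffer-like cells of STOP it left less than the floor of 3 counts, so 0.0227 gives no direction. In cDC1-like cells the direction depends on how background is treated. With 1 recovery library, the diet stop and the library cannot be told apart.

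**Figure D4:**
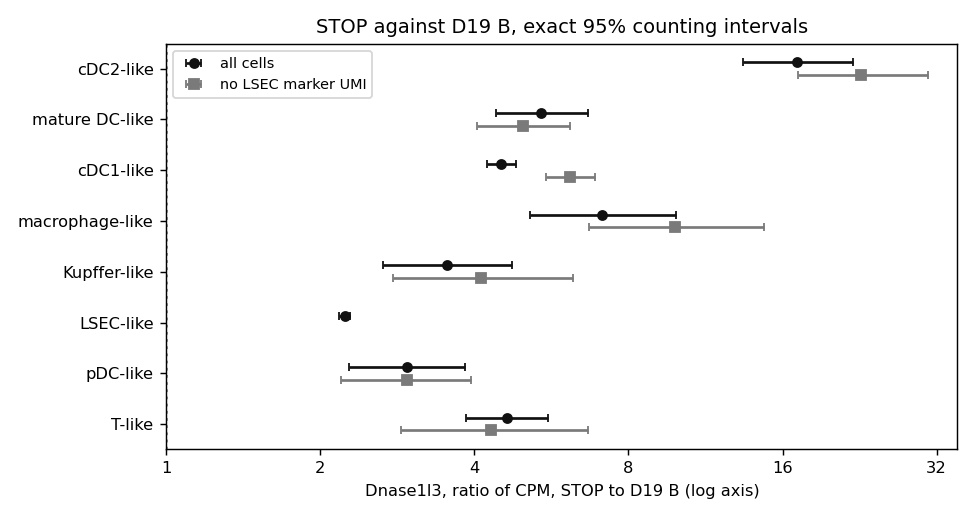
Ratio of Dnase1l3 CPM in STOP to D19 B (horizontal axis, log axis) by cell type, for all cells (black circles) and for cells without an LSEC marker UMI (grey squares), with exact 95% counting intervals. LSEC-like cells have no grey point. The cDC2-like ratios are 17.1 and 22.8, and T-like cells lie at 4.62 and 4.32.

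Within cell types, cells were split by whether they had a UMI of another gene or, in LSEC-like cells, of a short gene list, after each cell was thinned to 1500 UMIs, and libraries were paired with themselves. Cd209a, Mgl2, Clec4a4, Gpnmb, Cx3cr1 and Timd4 also served to name the cell types, and the gene was chosen by its level in these types, so the splits are not independent of the naming. Of 8 planned splits 7 could be made, since no library had 20 cells on each side for Clec4a4. Dnase1l3 was lower in cDC2-like cells with a UMI of Cd209a, a lectin of monocyte-derived and type 2 dendritic cells, than in those without. The levels were 83.2 ± 68.1 CPM and 177 ± 169 CPM (SD, n = 11 libraries), a mean log2 difference of -0.83 ± 0.56 (SD) on log2(CPM + 10), and cells with Cd209a were lower in 11 of 11 libraries. The exact two-sided sign-flip permutation test gave p = 0.00098, the smallest it can give, and an adjusted p of 0.0068 over the 7 splits. The log2 difference was widest in STOP (-1.80), 106 CPM with and 395 CPM without Cd209a, followed by D3 B (-1.30), 60.7 and 164 CPM, and D0 B (-1.29), 217 and 547 CPM. In D9 A, at 97.9 and 102 CPM, D25 A, at 125 and 141 CPM, and D9 B, at 10.6 and 12.99 CPM, the sides were close.

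Macrophage-like cells with Gpnmb, a gene of lipid-laden macrophages, held 49.6 ± 51.8 CPM and those without 61.8 ± 47.0 CPM (SD, n = 11 libraries). They were lower in 10 of 11 libraries, by a mean log2 difference of -0.40 ± 0.42 (SD, exact permutation test, adjusted p = 0.027). The side with Gpnmb rested on 1.05 Dnase1l3 UMIs in D3 B, 2.54 in D25 B, 2.70 in D19 B and 2.97 in STOP. These means over the thinnings lie under the floor of 3 counts, and the other libraries lay above it. The call was lost when cells were not thinned (log2 difference -0.21, exact permutation test, adjusted p = 0.497), and with an adjusted p of 0.055 in the same test without D3 A, D3 B, D5 A, D19 B, D25 B or STOP. Both levels were near those of T-like cells.

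The other splits did not pass. Cells with Mgl2, a lectin of cDC2B cells, were lower in 6 of 7 libraries (log2 difference -0.76 ± 0.73, SD, exact permutation test, adjusted p = 0.073), which passed with another set of random thinnings (adjusted p = 0.036) and without cells that had an LSEC marker UMI (adjusted p = 0.047). The side with Mgl2 rested on 0.55 Dnase1l3 UMIs in D19 B, 1.53 in D25 B, 2.01 in D9 B and 2.39 in D5 A. These means over the thinnings lie under the floor of 3 counts, and the other libraries lay above it. Ly6c2 could be split in 2 libraries (log2 difference -0.65, adjusted p = 0.70 by the exact permutation test, with 0.5 the smallest raw p). The log2 difference was -0.13 for Cx3cr1 in macrophage-like cells (13 libraries, adjusted p = 0.488) and 0.04 for Timd4 in Kupffer-like cells (9 libraries, exact permutation test, adjusted p = 0.954). With the clusters with LSEC markers counted the Cx3cr1 difference was -1.13 and passed (exact permutation test, adjusted p = 0.0017). Without cells that had an LSEC marker UMI the Timd4 difference was -0.48 (exact permutation test, adjusted p = 0.047), the opposite direction. In LSEC-like cells with a UMI of the pericentral genes Wnt2, Rspo3, Thbd or Kit, Dnase1l3 was 6491 ± 4046 CPM, and without them 6504 ± 4005 CPM (SD, n = 13 libraries). Their log2 difference, 0.0025 ± 0.145 (SD), was the narrowest in spread of the splits made in more than 2 libraries. Most cells fell on the side with a UMI, 17860 against 6669 on average over the thinnings. The split therefore cannot show whether Dnase1l3 differs between the pericentral zone and the rest.

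**Figure D5:**
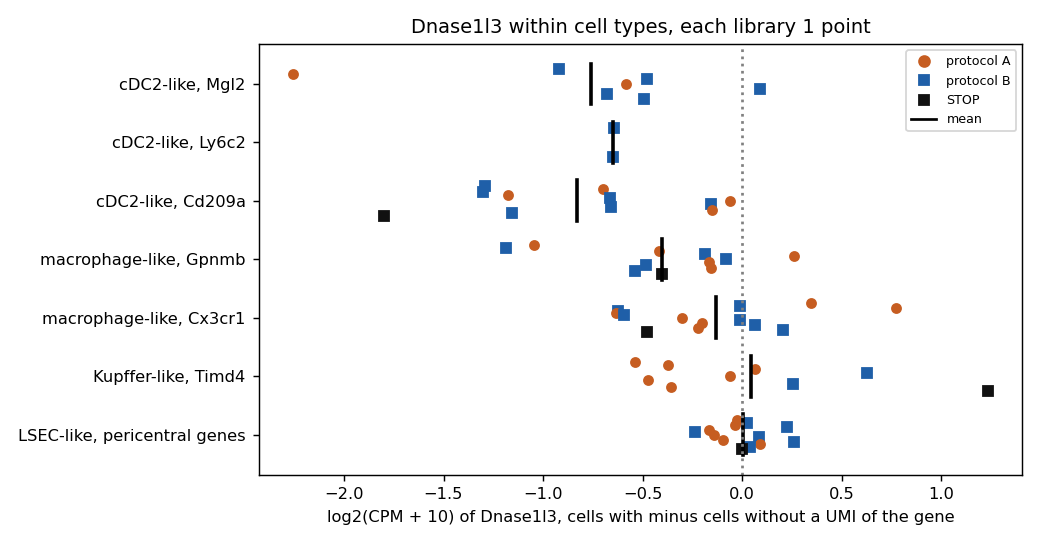
Difference of Dnase1l3 in log2(CPM + 10) between cells with and cells without a UMI of the named gene (horizontal axis), for 7 splits (rows), each point 1 library (orange circles protocol A, blue squares protocol B, black STOP) and each black bar the mean. All 11 points of Cd209a in cDC2-like cells lie below 0, and the 13 points of the pericentral LSEC split lie between -0.24 and 0.26.

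Other genes that handle DNA were read from 3 lists, with edgeR's quasi-likelihood test over all genes and protocol as a term, at progression against D0 to D5. In cDC2-like cells 0 of 9112 genes passed (0% higher and 0% lower), although the unadjusted p was under 0.05 for 968 of them, and 50 genes passed with DESeq2. In cDC1-like cells 0% were higher and 0.0106% lower, in macrophage-like cells 0.285% and 0.0528%, in Kupffer-like cells 0.112% and 0.161%, and in LSEC-like cells 0.00957% each way. For scale, the same fit put Dnase1l3 at a log2 difference of -2.20 ± 0.60 (SE) in cDC2-like, -2.06 ± 1.01 in macrophage-like, -1.44 ± 0.47 in cDC1-like, -0.91 ± 0.42 in Kupffer-like and -0.53 ± 0.33 in LSEC-like cells, with no test since the gene was chosen for it. Without D0 B these Dnase1l3 differences were -1.36, -0.36, -0.55, -0.37 and -0.10 in that order.

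Of the other DNases and related nucleases, 9 of the 11 listed were analysed and 5 or 6 had enough counts in a type. None of them passed in any of the 5 types. The unadjusted p was under 0.05 for 3 of 6 in macrophage-like cells, 2 of them higher at progression (50%, beside 13.5% of all genes). It was so for 2 of 5 in Kupffer-like cells, both higher (40%, beside 12.8%), and for 1 of 6 in cDC1-like cells (16.7%, beside 10.2%). In LSEC-like cells it was so for 1 of 6 (16.7%, beside 11.1%) and in cDC2-like cells for 0 of 6 (0%, beside 10.6%). Dnase1 and Dnase1l2, relatives in the same family, fell below the filter on low counts, at means of at most 0.323 and 0.968 CPM in any type. Dnase2a, the acid DNase of lysosomes, held 141 ± 16.5 CPM in Kupffer-like cells from D0 to D5 and 182 ± 16.1 CPM at progression (SD, n = 6 each, adjusted p = 0.326), and 25.5 ± 8.92 and 38.2 ± 3.72 CPM in cDC2-like cells (adjusted p = 0.542). Pld4, a lysosomal exonuclease for single-stranded nucleic acid, held 300 ± 98.3 and 262 ± 31.3 CPM in cDC2-like cells (adjusted p = 0.756). Pld3, its relative, held 201 ± 103 and 335 ± 57.0 CPM in macrophage-like cells (adjusted p = 0.343). In cDC2-like cells the median log2 difference of the 6 tested was -0.15, beside 0.01 over all 9112 genes tested there. Over the 5 types the list's median lay between -0.15 and 0.36.

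Nucleic acid sensors likewise gave no call among the 17 to 20 of 22 tested in each type. Unc93b1, the chaperone of endosomal Toll-like receptors, held 308 ± 59.9 and 331 ± 40.1 CPM in cDC2-like cells (SD, n = 6 each, adjusted p = 0.951), and Samhd1, a dNTPase, 284 ± 90.5 and 266 ± 50.7 CPM (adjusted p = 0.901). Tmem173, which encodes STING, the adaptor for cytosolic DNA, held 72.0 ± 16.6 and 81.5 ± 10.96 CPM there (adjusted p = 0.888). In cDC1-like cells Tlr3, a receptor for double-stranded RNA, held 150 ± 69.5 and 135 ± 41.9 CPM (adjusted p = 0.874). The list's median log2 difference was -0.05 in cDC2-like cells and lay between -0.35 and -0.05 over the 5 types. The unadjusted p was under 0.05 for 8 of 19 in Kupffer-like cells, 5 of them lower at progression (42.1%, beside 12.8% of all genes), for 7 of 17 in LSEC-like cells, 6 of them lower (41.2%, beside 11.1%), and for 6 of 20 in macrophage-like cells, 4 of them lower (30%, beside 13.5%). It was so for 0 of 20 in cDC2-like cells (0%, beside 10.6%) and 2 of 19 in cDC1-like cells (10.5%, beside 10.2%).

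Of the genes for the uptake of dead cells, 14 to 16 of 16 were tested in each type, and 1 passed. Mfge8, a bridging protein between dying cells and phagocytes, rose in macrophage-like cells from 7.96 ± 4.36 to 42.4 ± 27.3 CPM (SD, n = 6 each), a log2 difference of 2.24 ± 0.378 (SE, adjusted p = 0.022). Kupffer cell markers in the same cells summed to 365 to 641 CPM from D0 to D5 and 752 to 1498 CPM at progression, without overlap, and their part was not tested. The cells compared lay in different clusters: 1 cluster of 1034 macrophage-like cells had at least 20 cells in the 6 progression libraries and STOP and in no library of D0 to D5, and most macrophage-like cells of D0 lay in another. Without D0 A, D3 A, D3 B, D19 B or D25 B its adjusted p was 0.053 to 0.088, and it was 0.146 when the clusters with LSEC markers were counted as macrophages. In cDC2-like cells 3 of 14 had an unadjusted p under 0.05, all higher at progression (21.4%, beside 10.6% of all genes tested), and the list's median log2 difference was 0.56 beside 0.01. In the other 4 types 31.3% to 37.5% had such a p, all higher, beside 10.2% to 13.5% of all genes. Macrophage markers in cDC2-like cells summed to 158 to 206 CPM at steady state, 132 to 264 CPM at onset and 175 to 822 CPM at progression, with overlap. In cDC1-like cells they summed to 9.29 to 213 CPM at onset and 168 to 453 CPM at progression. The sums were 1490 to 2820 and 2290 to 3894 CPM in Kupffer-like cells, and 51.7 to 94.3 and 87.6 to 205 CPM in LSEC-like cells. The part of these markers was not tested. Lrp1, an endocytic receptor, had a log2 difference of 0.61 in cDC2-like cells (adjusted p = 0.377). C1qb, a complement subunit that tags dying cells, held 4304 ± 1354 and 4850 ± 1074 CPM in macrophage-like cells (adjusted p = 0.848). Stab1, a scavenger receptor of LSECs, held 1072 ± 271 and 825 ± 192 CPM in LSEC-like cells (adjusted p = 0.573).

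Over 157 sums of a cell type in a library, the genes whose log2(CPM + 10) followed Dnase1l3 most closely among 3200 compared were Rasgrp3 (Pearson's r = 0.83), Adam23 (0.81), Fam167b (0.79), Rasal2, Kdr, Plxnc1, Cldn5, Esam, Rasip1 and Gpr182 (0.77). Kdr and Gpr182 are LSEC markers and Cldn5 and Esam encode endothelial junction proteins. Over the 13 sums of cDC2-like cells, with 2521 genes compared, they were Sat1 (0.86), Fkbp1a, St13, Hspd1, Naa38, Hexa, Lst1, Pole4, Pgk1 and Hsp90b1 (0.79). No gene stood in both groups, but with 10 of 3200 and 10 of 2521 genes listed an empty overlap says nothing about the genes. The sums share their libraries, protocols and depth, so these values describe the sums and carry no test.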

How the data were processed

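The authors deposited 1 matrix of UMI counts per library. Per the processing notes reads were mapped with kallisto to GRCm38, with versions not given in the sources used here. Barcodes with at least 1500 UMIs were taken as cells and clustered (2000 variable genes, 40 principal components, 25 neighbours, Leiden clustering, scikit-learn 1.9.0, igraph 0.11.9), leaving out Dnase1l3 and the gene lists. A cluster was named from at least 3 detected markers. The naming limits were set after the clusters were seen, and no doublet caller was run. The gene and the lists were chosen with earlier results of these data known.

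CPM is Dnase1l3 per 1000000 UMIs of a type in a library, given for at least 20 cells. Intervals are exact at 95% and, like floors of 3 counts, cover counting error only. Splits used the mean of 100 thinnings to 1500 UMIs and an exact sign-flip permutation test with Benjamini-Hochberg adjustment. UMIs summed per type and library were fitted with edgeR 4.0.16 (quasi-likelihood, protocol as a term) in R 4.3.3, with DESeq2 1.42.0 as an alternative, at an adjusted p of 0.05. Mature DC-like sums were not fitted. Both scripts were tested on simulated data. Named genes were those called, the 3 of highest mean CPM of each list and type, and the 10 most correlated with Dnase1l3 among genes of at least 50 CPM. Dnase1 and Dnase1l2 were added after their values were seen.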

Additional observations from a re-analysis of the deposited data

How the results depend on the processing

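Some alternatives were chosen after seeing the data: counting the clusters with LSEC markers or with markers of 2 DC types, subtracting by the LSEC-like cell ratio, and other thinnings. The difference of progression from D0 to D5 in Dnase1l3, on log2(CPM + 10), stayed negative in all 6 types under each alternative run, and moved in Kupffer-like cells from -0.74 to -1.78 with the LSEC-like cell ratio subtracted. The thinned share of cells with a UMI was nonetheless 2.03 percentage points higher at progression in Kupffer-like cells. Without 1 library at a time it ran from -2.08 to -1.46 in cDC2-like, -1.23 to -0.71 in mature DC-like, -1.27 to -0.75 in cDC1-like, -1.42 to -0.55 in macrophage-like, -1.06 to -0.44 in Kupffer-like and -0.57 to -0.16 in LSEC-like cells.

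The ratio of STOP to D19 B in cDC2-like cells was 22.8 without cells that had an LSEC marker UMI, 23.6 with free RNA subtracted, 7.16 with the LSEC-marker clusters counted and 28.8 with the LSEC-like cell ratio subtracted. In the same order it was 6.16, 0.566, 3.63 and 4.14 in cDC1-like cells. In Kupffer-like cells it was 2.57 at a minimum of 3000 UMIs, 0.0227 with free RNA subtracted and 5.64 with the LSEC-marker clusters counted, and in LSEC-like cells 2.12 at 3000 UMIs. The Kupffer-like value with free RNA subtracted rested on less than the floor of 3 counts in STOP. The cause of the reversals was not tested beyond the subtraction itself.

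The number of genes called was the least stable result. In the order cDC2-like, cDC1-like, macrophage-like, Kupffer-like and LSEC-like, edgeR called 0, 1, 32, 22 and 2 genes, DESeq2 50, 35, 281, 170 and 123, and edgeR with no filter 292, 303, 595, 481 and 545. At 3000 UMIs the macrophage-like, Kupffer-like and LSEC-like counts were 21, 0 and 1. Without the protocol term, and without cells that had an LSEC marker UMI, the cDC1-like and Kupffer-like counts were 0, and the cDC1-like count was 0 with either group of unnamed clusters counted. Without 1 library at a time the counts ran from 0 to 22 in cDC2-like cells (22 without D5 B, 4 without D5 A), 0 to 45 in cDC1-like (45 without D5 B), 5 to 88 in macrophage-like (5 without D3 B, 88 without D9 A), 0 to 99 in Kupffer-like (0 without D19 A, 99 without D5 B) and 0 to 81 in LSEC-like cells (81 without D5 B).

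The Cd209a split kept its call under each alternative run (without 1 library, -0.91 to -0.73). The Mgl2 split passed without cells that had an LSEC marker UMI (-0.81) and with other thinnings (-0.81). The Gpnmb split was -0.21 and not called without thinning, and ran from -0.47 to -0.32 without 1 library at a time. The Cx3cr1 split was -1.13 and called with the LSEC-marker clusters counted, and the Timd4 split turned to -0.48 without cells that had an LSEC marker UMI. For the comparison of progression with D0 to D5, no paired analysis was possible because the replicate numbers of the groups were given in library order and pair no samples. Types with under 20 cells in a library give no value there.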
